A study of Mus musculus with 10 samples.

Results

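Expression of 9 inflammasome and necroptosis genes was examined in the mouse hippocampus after subarachnoid hemorrhage (SAH). The genes were Nlrp3, Pycard, Casp1, Casp4, Gsdmd, Casp8, Ripk1, Ripk3 and Mlkl, chosen by name as the core of these pathways, and each matched 1 of the 24391 gene names in the count tables. Bilateral whole hippocampi of young adult male mice, of a strain that the study's methods spell C56BL/6J, were taken 4 days after surgery, with 1 RNA-seq library per mouse. SAH mice (n = 4) had an artery of the circle of Willis perforated on one side with a filament and were retained only when blood flow dropped at perforation. In Sham mice (n = 3) the filament was introduced but did not puncture the artery, and no operation was done on Naive mice (n = 3). The labels give no drug treatment, although surgery was done under isoflurane anesthesia, and Sham and Naive mice together are called control (n = 6).

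An inflammasome is a protein platform that forms in the cytosol when a sensor such as NLRP3 meets signs of infection or damage. The adaptor ASC, encoded by Pycard, then recruits caspase-1, which matures interleukin-1β and interleukin-18 and cuts gasdermin D into a pore-forming fragment, so that the cell may die by pyroptosis. Necroptosis is another lytic death, in which RIPK1 and RIPK3 act through MLKL, and caspase-8 holds it in check. In the brain, microglia are a main source of inflammasome components. These proteins are controlled largely by cleavage, phosphorylation and assembly, none of which is measured by RNA-seq.

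At 4 days, none of these genes passed the test between SAH and control. Of the 9 genes, 7 had enough counts to be tested, and 0 of 7 had an adjusted p under 0.10 in edgeR's quasi-likelihood test, beside 4.68% of the 14993 genes tested. By direction, 3.13% of all genes tested were called higher and 1.54% lower. These 470 and 231 genes became 271 and 90 without Naive mouse 8, 320 and 107 without Naive mouse 9, 288 and 108 without Naive mouse 10, and 223 and 85 once SAH mouse 4 was removed, but 686 and 407 when SAH mouse 2 was. Casp8 was the 1 of 7 with an unadjusted p under 0.05, beside 17.0% of all genes tested. DESeq2 also called 0 of 7, with 1 at an unadjusted p under 0.05, and it called 6.87% of all genes tested. The fitted log2 fold change was above 0 for 6 of the 7, with a median of 0.22 (1.16-fold), whereas the median over all genes tested was −0.0024. This tilt rested in part on SAH mouse 4, since without it 4 of 7 were above 0 and the median was 0.062 (1.04-fold). The median was also lower without Naive mouse 9 (0.13) and, over the 6 genes then tested, without Sham mouse 6 (0.14). In CPM (counts relative to the TMM-scaled library size), the 4 SAH mice did not lie beyond all 6 control mice for any of the 9 genes, and 5.20% of all genes tested were separated in this way.

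**Figure D1:**
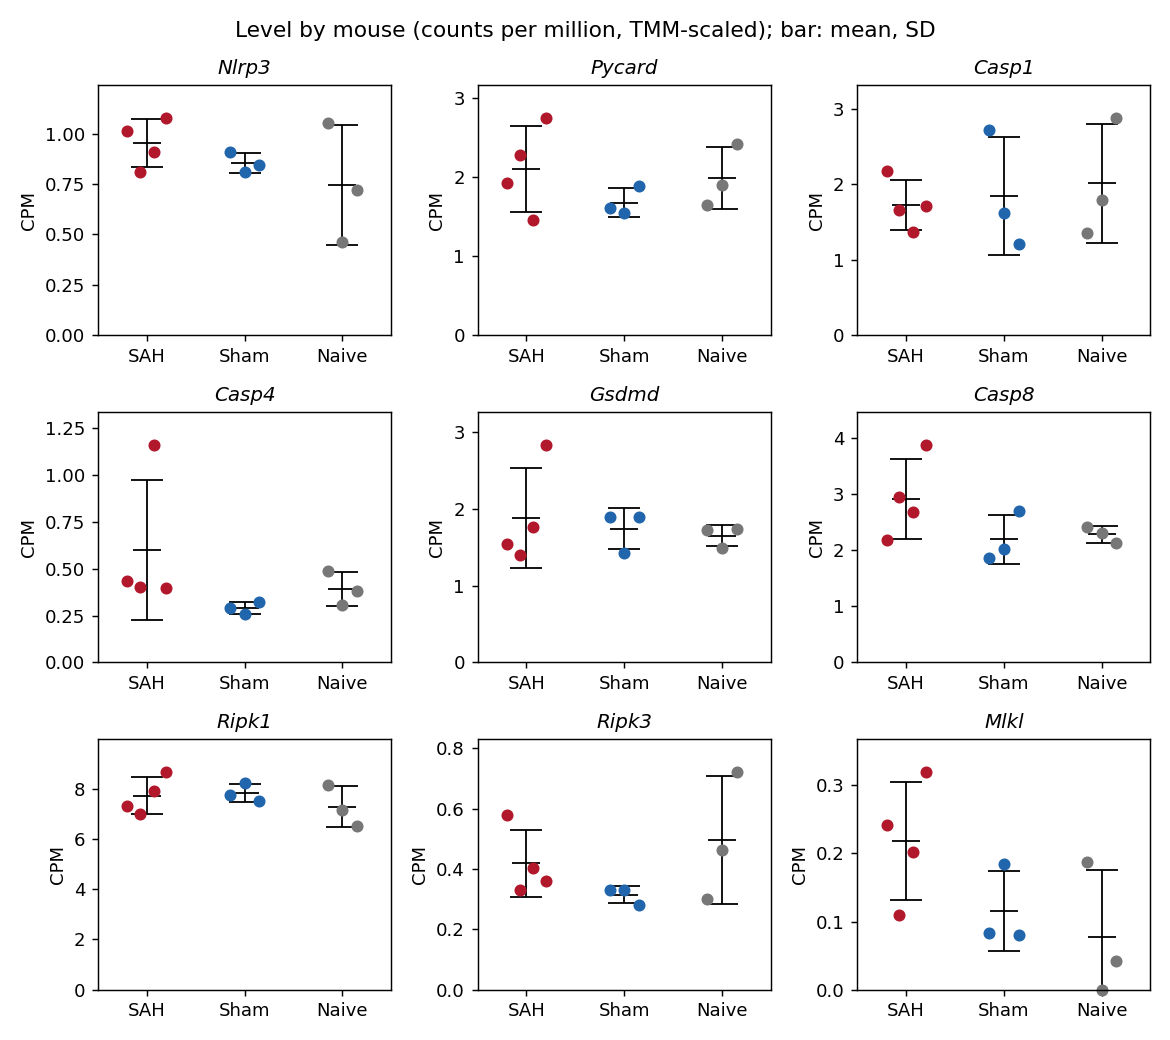
CPM of each gene (vertical axis, starting at 0) in every SAH, Sham and Naive mouse, with 1 point per mouse and black bars for the mean ± SD of each group. SAH and control points overlap in every panel, and 1 SAH mouse stands apart for Casp4 at 1.16 CPM.

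The libraries held between 19743388 and 27254655 counts, and these ranges overlapped between the groups. Compared pairwise over all genes, the library of SAH mouse 3 stood apart, with a chi-square per degree of freedom of 14.83 to 25.91 against each other mouse. SAH mouse 4 stood apart less far, at 12.93 to 15.97 against control mice and from 9.24 against the other SAH mice, and the pairs without these 2 mice gave 3.54 to 9.5. As a check of the tissue, all 10 listed markers of hippocampal neurons were tested and 0 were called, with summed levels of 9902 to 11390 CPM across the 10 mice. Markers of several cell types moved with SAH. Of 10 microglial markers 3 were called higher, Csf1r and Trem2 among them, and their summed level was 455.6 to 545.1 CPM in SAH, 438.1 to 472.4 in Sham and 421.6 to 446.5 in Naive. The fitted values of P2ry12, Sall1 and Cx3cr1 were below 0 and none of these was called. Of 10 monocyte and macrophage markers 6 were tested and 5 were called higher, while Ccr2, Ly6c2, Plac8 and Chil3 were below the filter. The sums over this list were 32.02 to 44.28 CPM in SAH, 14.2 to 17.1 in Sham and 10.7 to 11.5 in Naive. Of 7 fibroblast and meninges markers 6 were called higher (median log2 fold change 1.13), of 8 endothelial markers 3, and of 7 astrocyte markers 1, Gfap. Of 10 choroid plexus markers 0 were called, 3 had an unadjusted p under 0.05 in edgeR and DESeq2 called 0, with sums of 109.2 to 1256 CPM in SAH, 62.48 to 851.3 in Sham and 51.66 to 73.54 in Naive. All 7 oligodendrocyte markers were called lower. No neutrophil or T and NK cell marker was tested. Ly6g and Trbc2 were not among the counted gene names, and the other listed markers had too few counts. The part of these cells in the values below was not tested, and in bulk tissue fewer cells of a type and less RNA per cell cannot be told apart.

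Nlrp3, the sensor, is a model of 10 exon blocks on chromosome 11 (mm9, chr11:59356188-59380458, plus strand). Its counts were 21, 22, 18 and 27 in SAH, 22, 22 and 21 in Sham, and 28, 9 and 17 in Naive. The low value of 9 belonged to a Naive mouse, and the other 9 mice lay between 17 and 28. SAH mice averaged 0.953 ± 0.119 CPM (SD, n = 4), and control mice 0.800 ± 0.199 CPM (SD, n = 6). On the log2 scale SAH exceeded control by 0.23 (standard error 0.22, edgeR adjusted p = 0.619), and its 95% confidence interval allowed from 0.847 to 1.63-fold. Without Naive mouse 9, which had the low count, the difference was 0.13.

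Pycard, the adaptor (chr7:135134887-135137381, minus strand, 3 exon blocks), had counts of 40, 62, 29 and 69 in SAH, 39, 42 and 47 in Sham, and 44, 37 and 57 in Naive. SAH mice held both the lowest and the highest CPM of all 10 mice. SAH mice averaged 2.11 ± 0.546 CPM (SD, n = 4), and control mice 1.84 ± 0.322 CPM (SD, n = 6). The fold change was 1.16 (interval 0.877 to 1.54; edgeR adjusted p = 0.588). Its log2 value of 0.22 was 0.062 without SAH mouse 4 and 0.35 without SAH mouse 3.

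Casp1, the caspase that matures interleukin-1β, lies at chr9:5298517-5307281 (plus strand, 10 exon blocks). Its counts were 45, 45, 27 and 43 in SAH, 66, 44 and 30 in Sham, and 36, 35 and 68 in Naive. The SAH mice lay within the control range, and the highest values were in 1 Sham and 1 Naive mouse. Casp1 was the only tested gene of the 7 with a fitted value below 0, at −0.15 on the log2 scale (0.898-fold, interval 0.614 to 1.31; edgeR adjusted p = 0.785).

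Casp4, the caspase that binds bacterial lipopolysaccharide in the cytosol and can cut gasdermin D without an inflammasome sensor, begins shortly downstream of Casp1 (chr9:5308849-5336791, plus strand, 9 exon blocks). Its counts were 9, 11, 23 and 10 in SAH, 7, 7 and 8 in Sham, and 13, 6 and 9 in Naive. The 3 other SAH mice, at 0.40 to 0.44 CPM, lay inside the control range of 0.257 to 0.489 CPM, and SAH mouse 3 stood at 1.16 CPM. Casp4 had the largest fitted value of the 7, a log2 fold change of 0.76 (standard error 0.36, interval −0.014 to 1.52, edgeR adjusted p = 0.303). Without SAH mouse 3 it was 0.26 (edgeR adjusted p = 0.802).

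Gsdmd encodes gasdermin D, the pore-forming protein (chr15:75692769-75697834, plus strand, 11 exon blocks). Its counts were 32, 38, 35 and 71 in SAH, 46, 39 and 47 in Sham, and 46, 29 and 41 in Naive. SAH mouse 4 lay above the control range, and SAH mouse 2 was the lowest of all 10 mice in CPM. The fold change was 1.11 (interval 0.826 to 1.5; edgeR adjusted p = 0.724), and without SAH mouse 4 the log2 value was −0.12.

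Casp8 encodes caspase-8, which starts apoptosis at death receptors and cleaves RIPK1 and RIPK3 (chr1:58852218-58904347, plus strand, 11 exon blocks). Its levels in SAH were between 2.17 and 3.88 CPM, with a median of 2.81, and in control between 1.86 and 2.69, with a median of 2.22. Of the 4 SAH mice, 2 lay above every control mouse, and the 2 others lay within the control range. The counts were 45, 80, 53 and 97 in SAH, 45, 55 and 67 in Sham, and 64, 45 and 50 in Naive. SAH exceeded control by 0.39 on the log2 scale (standard error 0.17, 1.31-fold, interval 1.02 to 1.68). Its unadjusted p of 0.0346 became an adjusted p of 0.250 in edgeR. Casp8 was the 1 of 7 genes whose interval lay above no change, and leaving out single mice gave adjusted p-values from 0.115 to 0.501. Casp8 was at 0.22 in log2 units without SAH mouse 4, with an unadjusted edgeR p of 0.187.

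Ripk1, the kinase at the fork between survival and death signalling (chr13:34094743-34127039, plus strand, 11 exon blocks), was the most precisely measured gene. Its counts were 151, 190, 157 and 217 in SAH, 188, 224 and 187 in Sham, and 217, 139 and 154 in Naive. SAH mice averaged 7.72 ± 0.745 CPM (SD, n = 4), and control mice 7.56 ± 0.644 CPM (SD, n = 6). The interval of the fold change, 0.887 to 1.17, allowed only small differences in either direction (log2 fold change 0.028, edgeR adjusted p = 0.904). Its sign turned without SAH mouse 4 (−0.035) and without Naive mouse 10 (−0.010).

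Ripk3, the kinase that phosphorylates MLKL (chr14:56403832-56407694, minus strand, 10 exon blocks), was below the filter on low counts. Its counts were 12, 9, 8 and 9 in SAH, 8, 9 and 7 in Sham, and 8, 9 and 17 in Naive. The mean log2 CPM differed by 0.076 between SAH and control, over 210 ways of dividing 10 mice into 4 and 6. The exact two-sided permutation p was 0.733 with the smaller tail doubled and 0.752 by the absolute difference. In edgeR without the filter the interval of the log2 fold change was −0.67 to 0.76 (adjusted p = 0.961).

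Mlkl, the executor of necroptosis (chr8:113835700-113861803, minus strand, 11 exon blocks), was the rarest of the genes. Its counts were 5, 3, 4 and 8 in SAH, 2, 5 and 2 in Sham, and 5, 0 and 1 in Naive. Of the 4 SAH mice, 3 lay above every control mouse in CPM, and all were above the control median. The mean log2 CPM was 0.81 higher in SAH, and whether this log2 value passed 0.05 depended on how a two-sided exact permutation p was defined. Doubling the smaller tail gave an exact permutation p of 0.0476, and counting the splits with at least as large an absolute difference gave an exact permutation p of 0.0619. On untransformed CPM the corresponding exact permutation p-values were 0.0476 and 0.0429. The second definition was computed first, and the first was adopted after that value had been seen. Neither is adjusted for the 2 genes tested in this way. In edgeR without the filter the log2 fold change was 1.05 (interval −0.12 to 2.21), with an unadjusted p of 0.0747 and an adjusted p of 0.401, so no change of Mlkl is called here.

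Without SAH mouse 3, whose library stood apart, the same 7 genes had log2 fold changes from −0.064 (Casp1) to 0.44 (Casp8), and edgeR called none of them (adjusted p from 0.296 for Casp8 to 0.963 for Ripk1). SAH mouse 4, the other library that stood apart, had the highest CPM of the 10 mice for 6 of the 9 genes (Casp8, Nlrp3, Pycard, Gsdmd, Ripk1 and Mlkl). Naive mouse 10 had the highest for Casp1 and Ripk3. Across the 10 mice, Pearson's r between pairs of the 7 tested genes ranged from −0.494 (Casp1 and Casp8) to 0.586 (Casp8 and Gsdmd), as a description over libraries that share depth and group. By the same measure over 10 mice, the 3 tested genes most like Nlrp3 were E130102H24Rik (r = 0.915), Aif1 (r = 0.911), a gene of microglia and macrophages, and Gipr (r = 0.901). They were Arsk (r = 0.984), 2810002D19Rik and Dkc1 for Pycard, and Pgbd1 (r = 0.933), Trim66 and Dand5 for Casp1. For Casp4, with SAH mouse 3 at 1.16 CPM and no other mouse above 0.489, so that the correlations rest mostly on that library, they were Sbno2 (r = 0.977), Tfdp1 and Sf3b1, and for Gsdmd Sigirr (r = 0.928), 9230110C19Rik and Myef2. For Casp8 they were Thbs4 (r = 0.946), Lman2 and Clec2d, and for Ripk1 Vps16 (r = 0.923), Gm15328 and Fsd1l. These are the highest of 14993 tested genes over only 10 mice.

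The SAH mice were next compared with each control group alone. These comparisons share the SAH mice, so they are not independent. Against Sham, 0 of 7 genes were called by edgeR or DESeq2, beside 0.747% of all genes tested in edgeR. That background was unstable, since 82 genes were called higher and 30 lower, but 6 and 0 without Sham mouse 6, 8 and 2 without Sham mouse 5, 15 and 0 without Sham mouse 7, 18 and 0 once SAH mouse 4 was removed, 12 and 0 in a fit of only these groups, 166 and 49 without SAH mouse 3, and 222 and 75 in DESeq2. At an unadjusted p under 0.05 edgeR had 1 of 7, Casp4, and DESeq2 0, beside 9.64% of all genes tested in edgeR. Casp4 had a log2 fold change of 1.00 (interval 0.038 to 1.96, edgeR adjusted p = 0.494), and over the 7 of 10 left-out fits in which it passed the filter it ranged from 0.51 (without SAH mouse 3) to 1.16. Against Naive, 0 of 7 were called by either tool, beside 2.93%, and 0 of 7 had an unadjusted p under 0.05 in either, beside 14.7%. This background also moved, from 298 genes higher and 141 lower to 88 and 23 without Naive mouse 8, 107 and 45 without Naive mouse 9, 176 and 104 without Naive mouse 10, and 198 and 68 when SAH mouse 4 was left out. It was 443 and 240 without SAH mouse 2. Between Sham and Naive, 0 of 7 were called by either tool and 0 had an unadjusted p under 0.05, beside 0.00667% and 2.00% of all genes tested. Casp8 was 1.34-fold against Sham (interval 0.980 to 1.83) and 1.29-fold against Naive (interval 0.938 to 1.76).

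**Figure D2:**
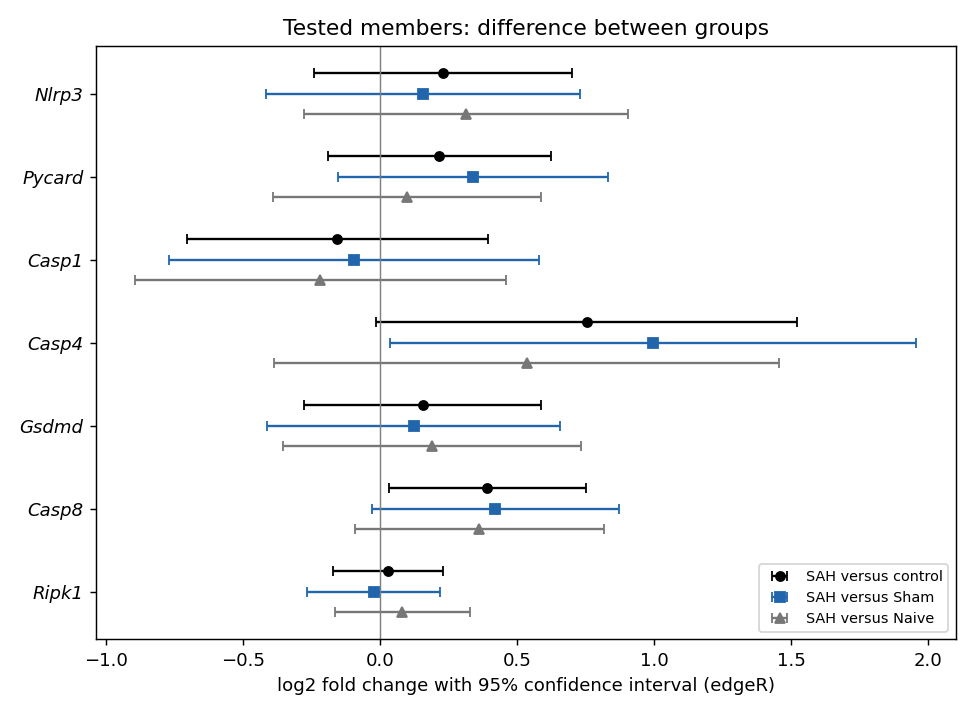
Fitted log2 fold changes (horizontal axis) of the 7 tested genes with 95% confidence intervals, for SAH versus control, Sham and Naive. The interval of Casp8 lies above 0 against control, that of Casp4 above 0 against Sham, and the other intervals span 0.

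Levels can be ordered between genes only per length, so CPM was divided by the exonic length of each gene model. The order of mean levels over the 10 mice was Ripk1 (1.70 CPM per kb), Casp1 (1.22), Gsdmd (1.00), Pycard (0.911), Casp8 (0.867), Casp4 (0.308), Nlrp3 (0.214), Ripk3 (0.209) and Mlkl (0.0852). Every pair of neighbours overlapped in range over the mice, although Casp8 was above Casp4 in all 10 mice. Ripk1, the highest, stood at the 21.7 percentile of all tested genes and Nlrp3 at the 2.82 percentile.

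**Figure D3:**
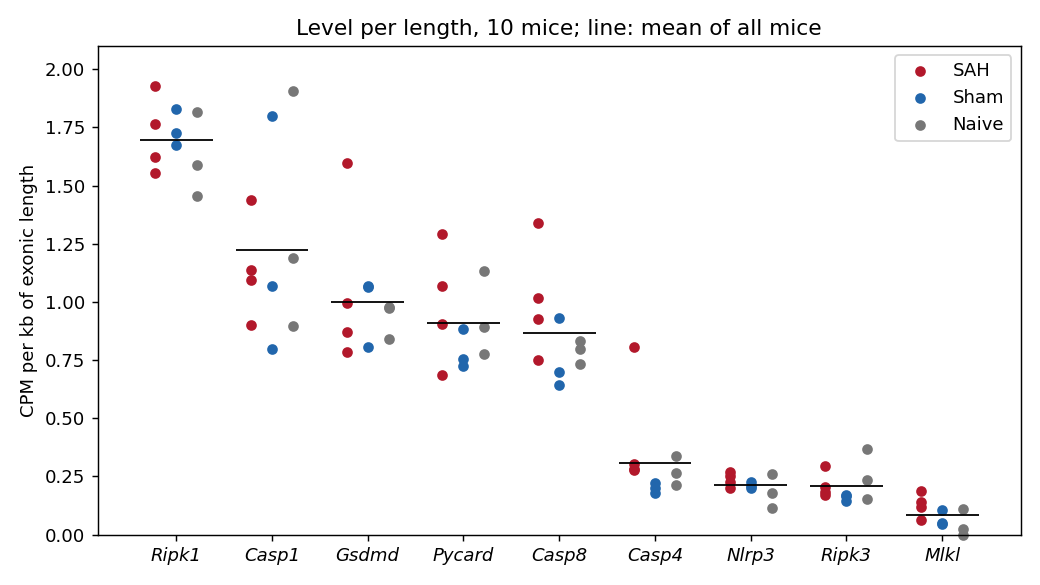
CPM per kb of exonic length (vertical axis, starting at 0) for each gene, ordered by the mean of all 10 mice (black line), with 1 point per mouse coloured by group. Ripk1 is highest at a mean of 1.70 and Mlkl lowest at 0.0852.

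Other genes of the same pathways did pass the test between SAH and pooled control. Of 43 listed inflammasome and interleukin-1 partners 28 were tested, and 7 were called higher and 2 lower (edgeR adjusted p under 0.10, beside 3.13% and 1.54% of all genes tested). DESeq2 also called 7 higher and 2 lower. The median log2 fold change of the 28 was 0.26. Of 40 necroptosis and death receptor partners 37 were tested, with 4 called higher and 0 lower and a median of 0.042. Of 30 tested apoptosis genes 0 were called by edgeR, 5 had an unadjusted p under 0.05 (beside 17.0% of all genes tested), and DESeq2 called 1, which was lower (beside 6.87%). The difference between these lists and the 9 genes was not tested. Without SAH mouse 4, 11 of the 13 called partners lost the call, all but Gbp3 and Ninj2, and the inflammasome partners called higher fell to 1 and the necroptosis partners to 0. The necroptosis count was also 0 without Sham mouse 6 or Naive mouse 8, 9 or 10. The inflammasome count was 2 without Naive mouse 8, 3 without Sham mouse 5 or Naive mouse 9, and 4 without SAH mouse 1, Sham mouse 6 or Naive mouse 10. Against Sham alone, in the fit of 3 groups without the filter, Gbp3 and Ninj2 were under 0.10 (edgeR adjusted p of 0.0684 and 0.0802). The other called partners were not, with edgeR adjusted p from 0.119 (Naip2) to 0.522 (Tnfrsf1b), though every called partner kept its direction. That contrast called 134 genes higher and 48 lower of 19538.

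Among the sensors, Nlrc5 and Naip2 were called higher. Nlrc5, known chiefly as an activator of MHC class I genes, rose by 1.04 on the log2 scale (edgeR adjusted p = 0.0718). Of the 10 left-out fits, 4 still called it, and its values ranged from 0.71 to 1.19. Naip2, which recognises bacterial secretion proteins, had counts of 29, 45, 41 and 53 in SAH, 27, 27 and 18 in Sham, and 33, 20 and 29 in Naive, and every SAH mouse was above every control mouse in CPM. Naip2 was higher in SAH by 0.78 in log2 units (edgeR adjusted p = 0.0474, standard error 0.19), and the call was lost only without SAH mouse 4. Its partner Nlrc4 was below the filter, and Aim2, the DNA sensor, was at 0.31 (interval −0.19 to 0.81, edgeR adjusted p = 0.530).

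Casp12, a caspase gene downstream of Casp4 on the same strand, was called higher, with a log2 fold change of 0.89 (standard error 0.25, edgeR adjusted p = 0.0758). It held this call in 2 of the 10 fits that left out a mouse. Its counts were 32, 36, 16 and 26 in SAH, 14, 16 and 21 in Sham, and 21, 12 and 9 in Naive. The difference between Casp12 and its neighbours Casp1 and Casp4 was not tested.

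The guanylate binding proteins Gbp2, Gbp3 and Gbp5, interferon-induced GTPases that act with inflammasomes on intracellular bacteria, were called higher. Gbp3 had counts of 145, 139, 89 and 212 in SAH, 86, 86 and 90 in Sham, and 98, 71 and 74 in Naive, and the groups did not overlap in CPM. It rose by 0.86 on the log2 scale (edgeR adjusted p = 0.0107), and its call remained in all 10 fits that left out a mouse. Gbp2 rose by 0.76 and Gbp5 by 0.80 (edgeR adjusted p of 0.0501 and 0.0724), and they kept their calls in 7 and 4 of those fits, with lowest values of 0.63 and 0.52.

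Of the interleukin-1 family, Il33, an alarmin released by glia, rose by 0.30 (edgeR adjusted p = 0.0643), with its call kept in 3 of the 10 left-out fits. Il1rap, the shared receptor chain of interleukin-1 and interleukin-33, fell by 0.20 (edgeR adjusted p = 0.0571), with its call kept in 5. Ninj2, a relative of the membrane rupture protein NINJ1, fell by 0.90 (edgeR adjusted p = 0.0246) and its call remained in all 10 fits. The oligodendrocyte markers were lower in the same comparison, and their part in the value of Ninj2 was not tested. Of the main products of inflammasome action, Il18 was not called, with a log2 value of 0.096 (edgeR adjusted p = 0.503). Il1b, with 5 to 9 counts in SAH and 2 to 8 in control, was below the filter and had no call. In edgeR without the filter, Il1b had a log2 value of 1.07 (interval 0.157 to 1.985, unadjusted p = 0.0245, adjusted p = 0.250).

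On the necroptosis side, the tumour necrosis factor receptors Tnfrsf1a and Tnfrsf1b were called higher by 0.39 and 0.45 on the log2 scale (edgeR adjusted p of 0.0643 and 0.0868). Birc3, a ubiquitin ligase that modifies RIPK1, was higher by 0.61, and Cyld, the enzyme that removes such ubiquitin chains, by 0.18. Each of the 4 held its call in only 2 or 3 of the 10 fits that left out a mouse, in which the log2 values ranged from 0.33 to 0.46 for Tnfrsf1a, 0.37 to 0.56 for Tnfrsf1b, 0.48 to 0.72 for Birc3 and 0.13 to 0.22 for Cyld. The adaptor Fadd (0.25, adjusted p = 0.394) and the caspase-8 regulator Cflar (0.12, adjusted p = 0.288) were not called by edgeR. Zbp1, a sensor that engages RIPK3, was below the filter, at 4 to 20 counts in SAH and 2 to 9 in control. In edgeR without the filter, Zbp1 had a log2 value of 1.19 (interval 0.32 to 2.06, unadjusted p = 0.0106, adjusted p = 0.170). Casp9, an initiator caspase of apoptosis, had a log2 value of 0.047 (edgeR adjusted p = 0.724) and was not called.

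**Figure D4:**
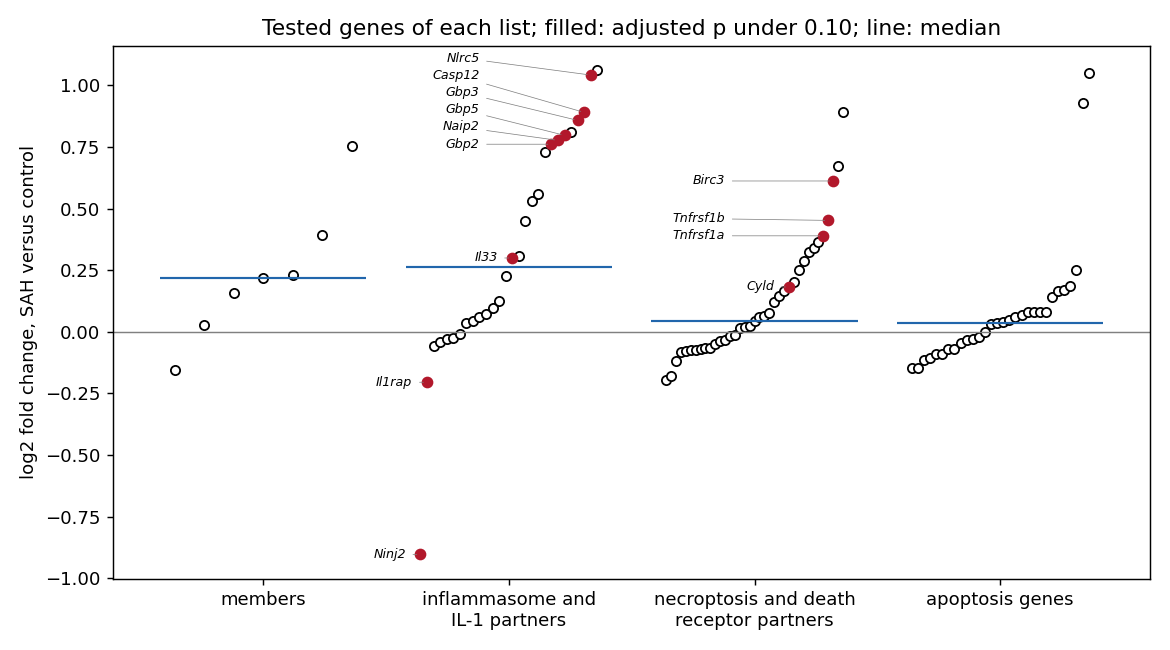
Log2 fold changes of SAH versus control (vertical axis) for the tested genes of 4 lists, sorted within each list, with filled and named points for genes with an edgeR adjusted p under 0.10 and a line at each median. None of the 7 tested members is filled, against 9 of 28 inflammasome and interleukin-1 partners, 4 of 37 necroptosis partners and 0 of 30 apoptosis genes.

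The promoters were read from mm9 (NCBIM37) as windows from 250 bases before to 50 bases after the first base of each gene model. They were searched on both strands for an ISRE-like motif (GAAANNGAA), the GAS motif (TTCNNNGAA) and the NF-kB consensus, letters bound by interferon-activated and inflammatory factors. The ISRE-like motif was in 3 of the 9 windows (Gsdmd, Ripk1 and Ripk3), beside 8.23% of 24181 windows. GAS was in 1 of 9 (Ripk1), beside 8.0%, and NF-kB in 3 of 9 (Casp4, Gsdmd and Mlkl), beside 9.03%. Of the 11 partners called higher, 6, 4 and 3 held the respective motifs. The windows of 6 of the 9 genes were identical to a RefSeq promoter entry, while Casp8 and Mlkl start elsewhere there and Gsdmd was not matched. The windows of Casp1, Casp8, Nlrp3 and Pycard held none of these letters. A match is a description of the letters only. Stretches are shown for the chromosome 9 neighbours Casp1, Casp4 and Casp12, for Gsdmd and Ripk1, whose windows hold several matches, and for Gbp3, whose call was kept in every fit. Capitals mark the matches. Casp4 (chr9:5308741-5308834, plus strand) has overlapping NF-kB matches and a separate one, Casp12 (chr9:5345359-5345463, plus strand) 2 GAS matches, and Gsdmd (chr15:75692589-75692651, plus strand) an ISRE-like and an NF-kB match. Ripk1 (chr13:34094620-34094761, plus strand) has 2 GAS matches, of which the second overlaps an ISRE-like one. Gbp3 (chr3:142222949-142222993, plus strand) has 2 overlapping ISRE-like matches. The 60 bases before Casp1 (chr9:5298457-5298516, plus strand) have none.
Casp1: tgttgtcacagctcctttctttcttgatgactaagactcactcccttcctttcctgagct
Casp4: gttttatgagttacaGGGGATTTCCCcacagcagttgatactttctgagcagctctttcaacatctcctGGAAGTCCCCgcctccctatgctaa
Casp12: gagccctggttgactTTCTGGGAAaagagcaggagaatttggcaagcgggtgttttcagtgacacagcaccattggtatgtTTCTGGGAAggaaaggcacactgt
Gsdmd: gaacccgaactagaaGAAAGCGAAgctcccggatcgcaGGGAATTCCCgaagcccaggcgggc
Ripk1: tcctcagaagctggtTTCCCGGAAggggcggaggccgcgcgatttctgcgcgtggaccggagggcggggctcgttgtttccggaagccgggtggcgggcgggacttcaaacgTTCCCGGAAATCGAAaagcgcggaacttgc
Gbp3: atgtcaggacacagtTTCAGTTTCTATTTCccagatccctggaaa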

How the data were processed

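RNA-seq of 10 mice was analysed, with groups taken from the sample labels. The authors aligned read pairs to mm9 with STAR, counted them on composite gene models with featureCounts 1.6.2, discarded pairs that fell on more than 1 gene, and deposited counts without normalization. No model overlaps any of the 9 genes, and no 2 libraries were duplicates. Exon ends were compared with the NCBIM37 annotation, and 87.0% of 220485 exons had both ends equal.

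The counts were fitted in edgeR 4.0.16 (R 4.3.3), after TMM scaling and filterByExpr (minimum count 10, minimum total count 15) by the quasi-likelihood test, adjusted by Benjamini-Hochberg over 14993 genes, with a threshold of 0.10. Pairwise comparisons came from 1 fit of 3 groups. The standard error is the log2 fold change divided by the square root of F. Scripts were tested on simulated data. Genes below the filter were tested by exact two-sided permutation of mean log2 CPM (prior count 2), where the smallest p with the smaller tail doubled is 0.00952. The absolute-difference form of this p was computed first, the doubled-tail form was adopted after that value had been seen, and both are given. DESeq2 1.42.0, other scalings, filters, thresholds, fits and each mouse left out were alternatives. Named were all 9 genes, the called partners (at most 6 per direction and list, by p), 12 listed genes whatever their result and, for each tested gene of the 9, the 3 genes most correlated with it. Genes under this rule that the text does not name are not reported here. Members and lists were chosen with earlier results of these data known. Depth, 19743388 to 27254655 counts, limits precision for rare genes.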

Additional observations from a re-analysis of the deposited data

Results flagged for a closer look

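Casp4 in SAH mouse 3 stood apart at 1.16 CPM, the highest of the 4 SAH mice, by Dixon's test of the gap to the nearest mouse. The others were at 0.40 to 0.44 CPM. The whole library of this mouse also differed from every other (chi-square per degree of freedom 14.83 to 25.91, against 3.54 to 9.5 for pairs without SAH mice 3 and 4). SAH mouse 4 also stood apart, at 12.93 to 15.97 against the control mice. Casp4 in SAH was the 1 of 18 groups of values with such a gap, and chance alone marks about 1 group in 20.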

How the results depend on the processing

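Over 246 alternative values, 223 kept their direction and side of the threshold, or stayed within 1.5 times for counts. None of the fits in which they passed the filter called any of the 9 genes, but for SAH versus control Mlkl was in only 1 alternative fit, Ripk3 in 3 left-out fits and 1 other, and Casp4 in 7 of the 10 left-out fits. With each mouse left out, the log2 fold change of Gsdmd ranged from −0.12 (without SAH mouse 4) to 0.29, and that of Ripk1 from −0.035 (without SAH mouse 4; −0.010 without Naive mouse 10) to 0.076. For Mlkl, edgeR without the filter gave 1.05 (adjusted p = 0.401), and the exact permutation p by absolute difference, computed first, was 0.0619 for the difference of 0.81, while the doubled tail adopted after seeing it gave 0.0476. With each mouse left out, inflammasome partners called higher numbered from 1 (without SAH mouse 4) to 8, necroptosis partners from 0 to 5, and apoptosis genes from 0 to 2. At an adjusted p under 0.05 they were 2 for the inflammasome and 0 for the necroptosis partners. The causes were not tested. No paired analysis was possible because the groups share no replicate numbers. With 4 against 6 mice and counts of 0 to 23 per mouse for Casp4, Ripk3 and Mlkl, wide intervals limit what can be said of these genes.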
